A study of Homo sapiens with 9 samples.

Results

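The sites described here are the CDK9 peaks of A375 cells that received A771726 alone and of A375 cells that received A771726 with nucleotides. They were taken from the peak lists of these groups, 290 peaks and 3099 peaks, which together make 3389 of the 27469 peaks in the 6 lists of the series. A site counted as present in both lists when its peaks overlapped by at least 1 bp. A375 is an established human melanoma line. In both groups chromatin was immunoprecipitated with the CDK9 antibody sc484 from Santa Cruz and sequenced, after exposure to 25 µM A771726 for 24 h, per the labels. The labels do not say which nucleotides were added or at what dose. The CDK9 list of cells given DMSO for 24 h (3462 peaks) and the DDX21 lists of the same treatments are used below only to describe these sites. The series has 9 samples, 3 of them inputs that were not analysed here, and each antibody and treatment has 1 library. No difference between the treatments can therefore be set against a replicate error, and the ranges in brackets beside shares are 95% Clopper-Pearson intervals. These are exact binomial intervals for counting error alone, with each peak taken as 1 independent draw.

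CDK9, with a cyclin T partner, forms P-TEFb, a kinase that phosphorylates RNA polymerase II and its pausing factors and releases the polymerase into productive elongation. Much of the P-TEFb of a cell is held inactive in a particle built on the 7SK small nuclear RNA. A771726, into which the drug leflunomide is converted in the body, blocks dihydroorotate dehydrogenase, an enzyme of pyrimidine synthesis, and added nucleotides can supply pyrimidines by another route. The comparison addresses which CDK9 sites of drug-treated cells are found only when nucleotides are supplied.

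Regions are given by hg19 position. No gene table of that build was used, so a gene named beside a region is the one known to lie there from general knowledge of the hg19 map, given as background and not looked up, and no count was made over genes.

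Most peaks of the short list had a partner in the long one, and few peaks of the long list had a partner in the short one. Of 290 peaks with A771726 alone, 222 lay on a peak with nucleotides, or 76.6% (71.2 to 81.3). Of 3099 peaks with nucleotides, 178 lay on a peak with A771726 alone, or 5.74% (4.95 to 6.62). Joined where they overlapped, these made 175 sites in both lists, beside 2921 peaks only with nucleotides and 68 only with A771726 alone. When each list was cut to its top 290 peaks, 47.6% of A771726 peaks had a partner and 33.8% of peaks with nucleotides did. The rule for sharing is a threshold: the smallest overlaps counted were 1 and 7 bp, and the closest peaks left apart had gaps of 2 and 10 bp.

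The lists were not called on an equal footing. The shortest peak, which the peak caller sets to its fragment length, was 50 bp with A771726 alone and 129 bp with nucleotides. The lowest local background was 0.521 and 1.24 fragments. Divided by the shortest peak, the lowest backgrounds gave 0.926 times as many tags with nucleotides as with A771726 alone. The fragment length and the treatment cannot be told apart in their effect on the number of peaks. As a description only, each peak with nucleotides had its summit pileup and background multiplied by 0.419, the ratio of the lowest backgrounds. This step was chosen after the data were seen and takes 1 factor for every summit. On that scale 696 of 3099 peaks, or 22.5% (21.0 to 24.0), reached the lowest −log10 p of the A771726 list, 6.06. Of these 696, 127 lay on an A771726 peak and 569 did not. Among the 2921 peaks only with nucleotides, 569 reached it, or 19.5% (18.1 to 21.0), and among the 178 in both 127 did, or 71.3% (64.1 to 77.9). The other 51 in both did not, although each has an A771726 peak. The limit of 6.06 also comes from the A771726 list itself. These shares therefore do not size the effect of the fragment length.

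Clusters of these sites lay at or beside 3 microRNA loci, and the microRNAs of these loci are shown as background. Mature let-7a-5p and miR-125b-5p are each encoded by more than 1 gene, so they do not identify a locus. The mature strands are printed 5′ to 3′ from RefSeq (GRCh38.p14), with the seed, bases 2 to 8, in capitals.
miR-21-5p: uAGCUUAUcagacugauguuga
miR-221-3p: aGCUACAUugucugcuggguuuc
miR-222-3p: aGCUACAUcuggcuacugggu
miR-100-5p: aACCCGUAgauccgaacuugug
let-7a-5p: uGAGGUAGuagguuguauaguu
miR-125b-5p: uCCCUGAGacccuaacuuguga
miR-221-3p and miR-222-3p share their seed, and the others each have their own. The cluster that reaches the MIR21 gene at the end of VMP1, chr17:57906633-57920719, held 8 peaks with A771726 alone and 10 with nucleotides. The cluster beside MIR221 and MIR222, chrX:45607327-45634716, held 1 and 22. The cluster in MIR100HG, the host gene of miR-100, let-7a and miR-125b, chr11:122019960-122068644, held 3 and 24. Over the whole lists there were 9.36 A771726 peaks for every 100 with nucleotides. Over all clusters, defined below, there were 29.0, or 23.3 without the cluster on chromosome 2 described below. A771726 peaks helped to define the clusters, which can raise both of these values above 9.36. No difference between the loci was tested. In DMSO cells the same stretches held 11, 16 and 23 CDK9 peaks.

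Sites found with nucleotides and with the drug alone were the strong and wide sites of the list with nucleotides. In that list their median width was 512 bp (quartiles 299 to 703), against 182 bp (147 to 254) for peaks found only with nucleotides. Their median fold enrichment was 5.64 against 4.27, and their median −log10 q was 14.5 against 5.46. Presence in the A771726 list was nearly flat over the lower part of the ranking. It was 1.29% (0.353 to 3.27) in the lowest decile of −log10 q, 1.94% (0.714 to 4.17) in the sixth, 7.10% (4.50 to 10.6) in the ninth and 32.7% (27.5 to 38.2) in the highest. By width the highest decile, peaks of 442 bp or more, gave 34.95% (29.6 to 40.6), and the lowest gave 0.968% (0.200 to 2.80).

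**Figure D1:**
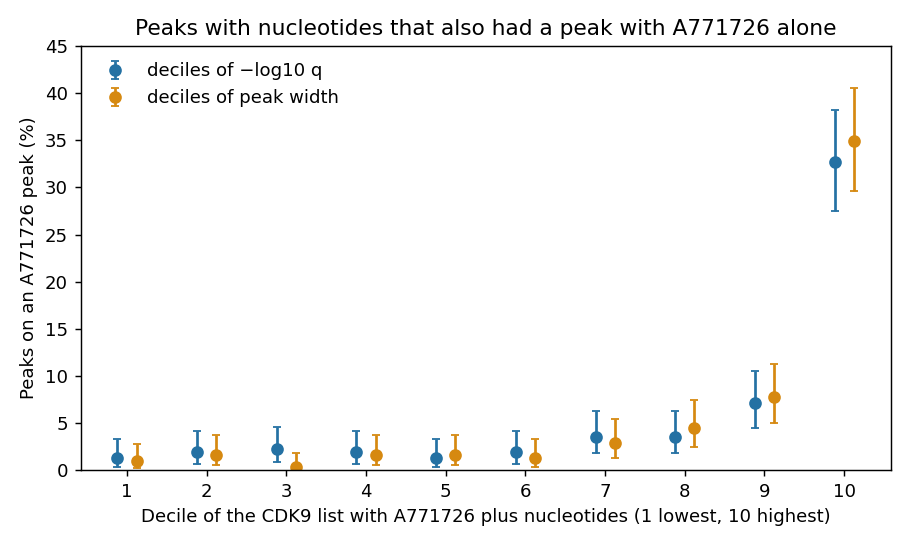
Share of CDK9 peaks with A771726 plus nucleotides that overlapped a peak with A771726 alone (y axis, percent) by decile of −log10 q and of peak width in the list with nucleotides (x axis). Points are shares and bars are exact binomial 95% intervals. The highest deciles reach 32.7% and 34.95%, and no other decile is above 7.74%.

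Within a shared site the A771726 peak was usually a short stretch inside the other peak. Of 225 overlapping pairs, 183 had the A771726 peak wholly inside the peak with nucleotides, and 3 the reverse. A771726 peaks covered a median of 25.4% (quartiles 16.4 to 41.2) of the peak with nucleotides. The summits lay a median of 71 bp apart, and 191 pairs had them within 250 bp. Of the 178 peaks with nucleotides, 142 held 1 A771726 peak, 28 held 2 and 8 held 3 or more, up to 5.

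**Figure D2:**
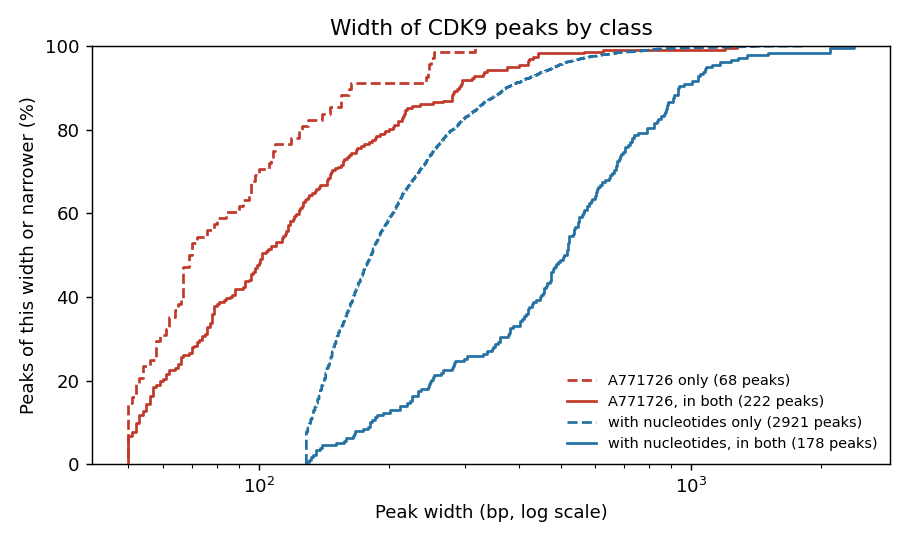
Cumulative share of peaks (y axis, percent) by width (x axis, bp, log scale) for peaks of each list found in both lists or in 1 list only. The curves start at 50 bp for A771726 alone and at 129 bp with nucleotides, the shortest peak of each list, and in each list peaks found in both are the wider ones.

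CDK9 peaks of DMSO cells, which took no part in the choice of these sites, were found at nearly all sites in both lists. Of all peaks with nucleotides, 50.6% overlapped a CDK9 DMSO peak. The share was 94.4% (89.9 to 97.3), 168 of 178, for peaks also found with A771726 alone and 47.9% (46.1 to 49.8), 1400 of 2921, for peaks only with nucleotides. With the list split into 4 by −log10 q, the intervals were apart in every group. In the lowest group the shares were 81.8% (48.2 to 97.7) and 30.8% (27.5 to 34.2). In the highest they were 96.1% (91.2 to 98.7) and 78.4% (75.1 to 81.6). This split did not hold width equal, since peaks in both had the larger median width in all 4 groups. The medians were 181 against 161.5 bp in the lowest and 552 against 271 bp in the highest. A wider peak meets the 1 bp rule more easily, and the part of width in these shares was not tested. The other 1521 peaks only with nucleotides lay on no CDK9 peak of the other 2 treatments. These had a median width of 162 bp and a median −log10 q of 4.68, against 230 bp and 6.74 for those with a DMSO peak. With every list cut to its top 290 peaks, 76.5% of peaks in both and 38.5% of those only with nucleotides lay on a DMSO peak.

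**Figure D3:**
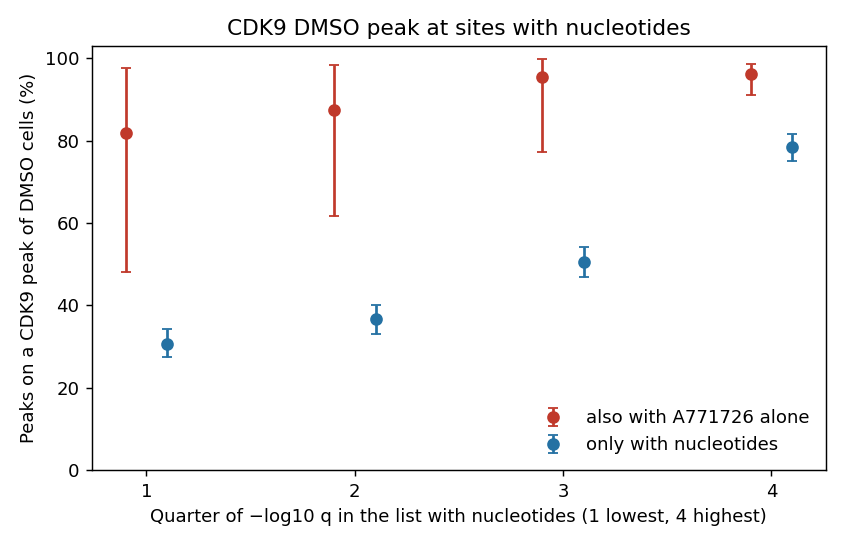
Share of CDK9 peaks with A771726 plus nucleotides that overlapped a CDK9 peak of DMSO cells (y axis, percent) with the list split into 4 by −log10 q (x axis, lowest to highest), for peaks also found with A771726 alone and peaks only with nucleotides. Bars are exact binomial 95% intervals, which do not overlap at any of the 4 positions. Peak width was not held equal between the classes.

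Peaks found only with the drug were on a DMSO peak in a minority of cases. Of all A771726 peaks, 77.6% overlapped a CDK9 DMSO peak. The share was 91.4% (87.0 to 94.8), 203 of 222, for those also found with nucleotides and 32.4% (21.5 to 44.8), 22 of 68, for those only with the drug. Without the cluster on chromosome 2 described below, the latter was 37.8% (22.5 to 55.2), 14 of 37.

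DDX21, an RNA helicase of the nucleolus and nucleoplasm, had a peak at a minority of the sites in each class. Over the list with nucleotides 13.6% of CDK9 peaks lay on a DDX21 peak of the same treatment. Peaks also found with A771726 alone had one in 21.3% (15.6 to 28.1), 38 of 178, and peaks only with nucleotides in 13.1% (11.9 to 14.4), 382 of 2921. With the list split into 4 by −log10 q, and width again not held equal, the intervals were apart only in the highest group. The shares in that group were 26.4% (19.0 to 34.8) against 14.4% (11.8 to 17.4). In the group below it the shares were 9.09% (1.12 to 29.2) and 13.4% (11.1 to 16.1). Over the A771726 list 15.5% lay on a DDX21 peak of that treatment, with 41 of the 222 peaks in both and 4 of the 68 only with the drug. With every list cut to its top 290 peaks, 0% of peaks in both and 0.521% of those only with nucleotides lay on a DDX21 peak.

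The strongest sites in both lists, ranked by −log10 q with nucleotides, lay in few places. The first was chr9:22158937-22159470, in the 9p21 interval between the CDKN2B-AS1 and DMRTA1 genes, with a fold enrichment of 13.4. Its summit pileup was 105 fragments with nucleotides, 35 with A771726 alone and 95 in DMSO. Another 2 of the top 10 lay in the same interval, chr9:22211457-22212343 with 69, 21 and 54 fragments and chr9:22147739-22148670 with 72, 28 and 83. In all 3 places the raw pileup was lowest with the drug alone, in the library with the short fragment length.

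The third site, chr11:65266310-65267221, lay at MALAT1, an abundant nuclear long noncoding RNA, with 73 fragments with nucleotides, 25 with A771726 alone and 59 in DMSO. At NEAT1, the noncoding RNA on which paraspeckles form, the site chr11:65190165-65192553 had 70, 34 and 82. Around these genes the clusters chr11:65264870-65275349 and chr11:65186643-65205344 held 8 and 7 peaks with A771726 alone and 12 and 17 with nucleotides, so both kept sites with the drug.

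The seventh site, chr17:18966744-18967583, lay at a copy of the U3 small nucleolar RNA gene, which serves ribosomal RNA processing. Its pileups were 84 with nucleotides, 23 with A771726 alone and 76 in DMSO. At the SNORD3A copy of this family, chr17:19091285-19091958, they were 81, 38 and 92. Over the 5 U3 sites in both lists, pileups were 47 to 84 with nucleotides, 23 to 38 with A771726 alone and 62 to 92 in DMSO. In raw pileups the drug alone lay below the others. As heights, defined below, which scale each list by 1 factor, the groups overlapped. The heights were 37.8 to 67.5 with nucleotides, 44.2 to 73.0 with A771726 alone and 53.0 to 78.6 in DMSO, and 1 of the 5 sites was higher with nucleotides than with the drug alone. U3 genes are near-identical, so reads could be placed at one copy or another. All 5 sites had a DDX21 peak, as did RNU2-2, a U2 small nuclear RNA gene of the spliceosome, at chr11:62608825-62609346, with 124, 69 and 128 fragments. The pileup of 69 was the highest of the A771726 list.

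Another 3 of the top 10, from chr8:43092766 to chr8:43096215, lay within one short stretch. Local backgrounds were 2.77, 7.62 and 8.31 fragments at these 3 peaks with nucleotides, around the list median of 4.85. At the 4 A771726 peaks on them they ran from 1.66, the list median, to 9.95. The DMSO list had a peak at 1 of these 3. In order of position, pileups were 84, 76 and 61 with nucleotides. With A771726 alone they were 57, 36 and 34, on peaks of only 57, 55 and 67 bp, against a list median pileup of 15. The cluster chr8:43092766-43097145 held 5 DDX21 peaks with A771726 alone and 2 with nucleotides. Repeats and the placing of reads were not examined here, so these need not be ordinary CDK9 sites. The remaining sites of the top 10 were chr1:149804098-149805604, in the 1q21 histone genes, with 83, 16 and 79 fragments, and chr1:33899094-33899685, with 88, 26 and 72.

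The strongest peak of the A771726 list, chr6:52860358-52860801, lay on RN7SK, which encodes the 7SK RNA that holds P-TEFb inactive. Its fold enrichment was 21.8 in that list. The overlapping peak with nucleotides, chr6:52860301-52860819, had a fold enrichment of 6.79 and ranked 35 in its own list. The pileups were 57 fragments with A771726 alone, 67 with nucleotides and 74 in DMSO. As heights, defined below, these were 109, 53.9 and 63.2. On that scale the site was highest with the drug alone, while in raw pileups it was lowest there. The order of the lists at this site therefore depends on the scaling, and no direction is drawn from it. The heights at the MALAT1 site were 48.0 with A771726 alone, 58.7 with nucleotides and 50.4 in DMSO, and at the NEAT1 site 65.3, 56.3 and 70.0.

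Heights at sites in both lists depended on the scaling. Raw pileups were higher with nucleotides at 169 of 178 sites, with a median ratio of 2.44. A height was therefore defined: the summit pileup of a peak over the lowest background found in that list, which scales with both the number of tags and the fragment length. On this scale the median ratio, with nucleotides over A771726 alone, was 1.02 (order-statistic 95% interval 0.921 to 1.08), and 92 sites were higher with nucleotides and 86 lower. With a division by the number of tags alone the ratio was 2.63. No overall direction is therefore drawn from heights, and only the order of sites within this comparison is used below. A height applies 1 factor to all sites of a list, so an effect of the fragment length that differs between sites stays in this order. The 3 lowest ratios were at peaks with nucleotides of 134, 158 and 381 bp, and the 3 highest at peaks of 431, 883 and 1507 bp. The part of peak shape in the order was not tested. Sites also had to pass the threshold of each list to be counted here. A DMSO peak was present at 168 of these sites. There the median height ratio to DMSO was 0.951 (0.906 to 1.002) with nucleotides and 0.923 (0.872 to 0.963) with A771726 alone. All intervals of height ratios cover only the spread over sites that share 1 library a treatment. They do not measure a difference between treatments, and the ratios to DMSO rest on the same scaling. Across the 178 sites, which share their 2 libraries, Spearman's rho between the heights was 0.51.

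**Figure D4:**
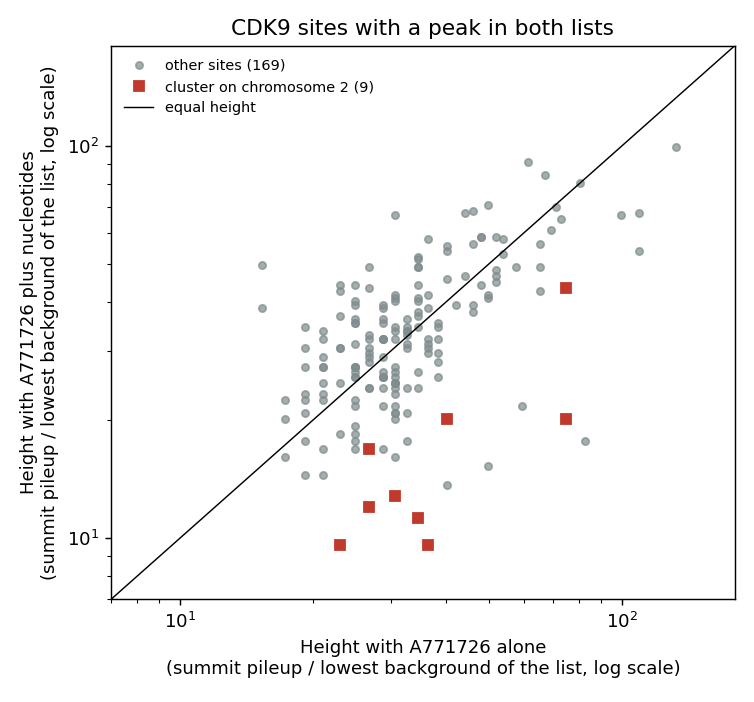
Height of the 178 sites with a peak in both lists, with A771726 alone (x axis) and with nucleotides (y axis), each as summit pileup over the lowest background of its list, on log scales. The line marks equal heights, and all 9 sites of the cluster on chromosome 2 lie below it.

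The cluster on chromosome 2 stood apart in this order. All 9 of its sites had a height ratio below 1, from 0.264 to 0.628 with a median of 0.419, against a median of 1.05 (0.933 to 1.095) at the other 169 sites. In raw fragments the medians were 1.00 and 2.50, which differ from these by the same factor at every site. The 9 sites lie in 1 locus and are not independent, and 2 of them overlap the same A771726 peak. The region was also known from earlier results of these data, so its ratios are a description and not a separate test. The lowest ratio of all, 0.214, was elsewhere, at chr12:112704953-112705086. There the pileup was 43 fragments with A771726 alone, 22 with nucleotides and 31 in DMSO, and the peak ranked 3 in the A771726 list and 1494 in the list with nucleotides. The next lowest were in the cluster, 0.264 at chr2:224880053-224880210 with 19 and 12 fragments, and 0.268 at chr2:224902656-224903036 with 39 and 25.

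This cluster, chr2:224846418-224904659, covers most of SERPINE2, which encodes a secreted inhibitor of serine proteases. It held 40 peaks with A771726 alone, 22 with nucleotides and 28 in DMSO. The peaks covered 6441, 5236 and 5955 bp, although the A771726 list as a whole covered 39205 bp against 768838 with nucleotides. Its strongest A771726 peak, chr2:224902751-224904031, was the widest of that list at 1281 bp and the second by −log10 q, with a fold enrichment of 20.1 and a pileup of 39 fragments. On the same stretch the higher peak with nucleotides, chr2:224903136-224904013, had 54 fragments, and the DMSO peak had 36. Of the 40 peaks, 31 overlapped no peak with nucleotides, and these made 31 of the 68 peaks found only with the drug. Short peaks can split 1 stretch into several, and 27 of the 40 overlapped a peak with nucleotides or lay within 1000 bp of one.

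**Figure D5:**
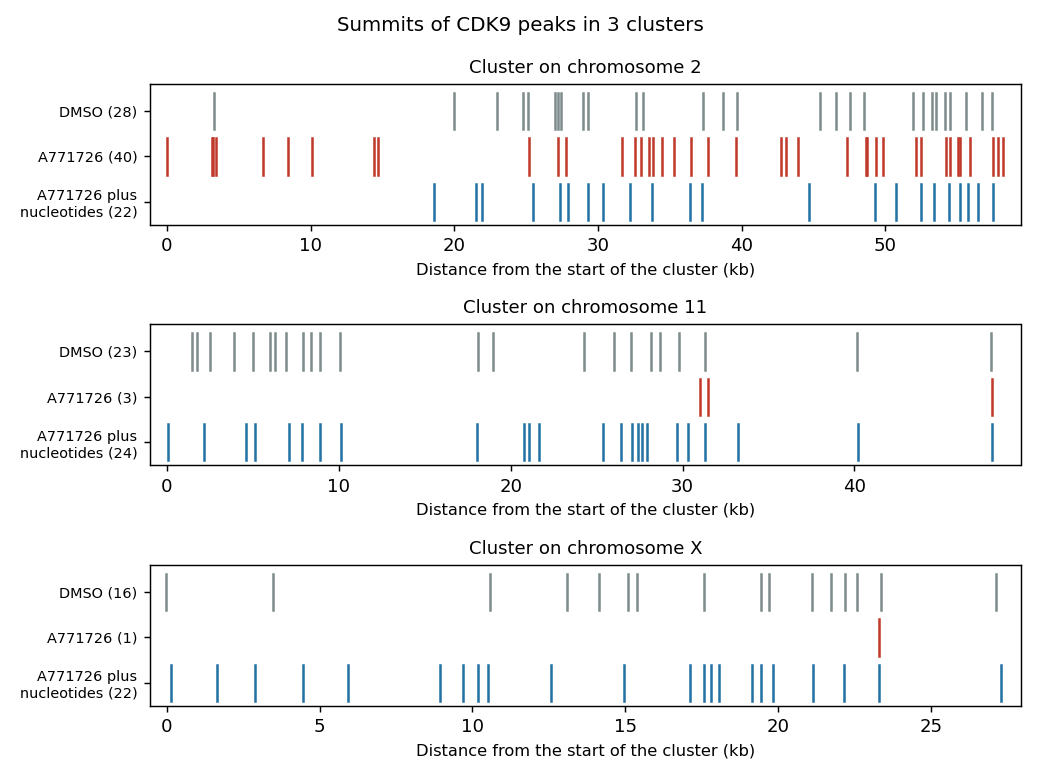
Summits of CDK9 peaks (vertical lines) in DMSO, with A771726 alone and with A771726 plus nucleotides, along the clusters on chromosomes 2, 11 (the first of its clusters by number of peaks) and X, as distance from the start of the cluster in kb (x axis). The numbers beside each row count its peaks: 28, 40 and 22 on chromosome 2, 23, 3 and 24 on chromosome 11, and 16, 1 and 22 on chromosome X.

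Clusters, runs of at least 5 peaks of both lists together with gaps of at most 10 kb, numbered 83. They held 176 peaks with A771726 alone and 606 with nucleotides, which is 29.0 of the former for every 100 of the latter. Without the first cluster it is 23.3, and over the complete lists 9.36. A771726 peaks counted towards the 5, so a stretch could qualify through them. The cluster chr2:70823281-70824237, for example, had 3 A771726 peaks and 2 with nucleotides. The ratio in clusters can therefore exceed that of the lists by the rule alone. In 38 clusters there was no A771726 peak, and in 6 there were more than with nucleotides. After SERPINE2, MIR100HG and NEAT1, the cluster with the next most peaks was chr3:149290701-149321501 in WWTR1, which encodes the transcriptional coactivator TAZ, with 8 peaks with A771726 alone, 15 with nucleotides and 15 in DMSO. The MIR221 and MIR222 stretch was the fifth. Within the single lists, 17.8% of peaks with nucleotides and 31.4% with A771726 alone were in clusters of that list. Of the 91 clustered A771726 peaks 40 were those at SERPINE2, and without them 45 of 213 peaks in both lists and 6 of 37 only with the drug were in a cluster. Of peaks with nucleotides, 41.6% (34.2 to 49.2) of those also found with the drug alone and 16.4% (15.0 to 17.8) of the others were in one.

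SOX5, a transcription factor gene of the neural crest lineage, held 3 clusters. The cluster chr12:24083606-24102982 had 0 peaks with A771726 alone, 16 with nucleotides and 12 in DMSO. The cluster chr12:24186705-24199192 had 5, 10 and 11, and chr12:24210944-24223241 had 0, 5 and 3. The second also held the site with the highest height ratio, 3.25, at chr12:24192002-24192432, with 62 fragments with nucleotides, 8 with A771726 alone and 41 in DMSO. Another cluster without an A771726 peak lay in AGMO, an ether lipid enzyme gene, at chr7:15529040-15551226, with 16 peaks with nucleotides and 9 in DMSO.

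Most peaks in the histone gene clusters were only with nucleotides, as in the list as a whole. On chromosome 6 between 26 and 28 Mb, where most replication-dependent histone genes lie, 6 clusters held 2 peaks with A771726 alone, 51 with nucleotides and 47 in DMSO. Of the 51, 49 lay on no A771726 peak, and over the whole list 5.74% lay on one. The cluster in the 1q21 histone genes, chr1:149804098-149832866, held 1, 7 and 10. The next highest height ratios after the SOX5 site were in these genes. They were 2.51 at chr6:26055869-26056751, with 48 fragments with nucleotides, 8 with A771726 alone and 40 in DMSO, and 2.17 at the 1q21 site named above. The pileup of 8, here and at the SOX5 site, was the lowest of the A771726 list, so both of those ratios rest on a value at its floor.

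The strongest sites only with nucleotides had a peak in DMSO too. All 10 of the top ones overlapped a CDK9 DMSO peak, with fold enrichments of 7.95 to 13.6 and widths of 265 to 1511 bp. Over all peaks only with nucleotides the share was 47.9%, and in the highest of the 4 groups by −log10 q it was 78.4%. The share rose with −log10 q, so a high count among the top 10 goes with their rank. Of these, 3 were in the 1q21 histone genes. The first of all, chr1:149822557-149823944, had 78 fragments with nucleotides and 71 in DMSO, and the nearest A771726 peak was 18135 bp away. The second, chr1:149811506-149812841, had 70 and 66, and chr1:149824071-149825581 had 59 and 60.

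Of the others, 3 lay at genes with known signalling roles. The site chr20:50041778-50042617, in NFATC2, a calcineurin-dependent transcription factor, had 72 fragments with nucleotides and 48 in DMSO. The site chr21:35898563-35899237, in RCAN1, an inhibitor of calcineurin, had 46 and 35. At the start of SPRY2, a feedback inhibitor of receptor tyrosine kinase signalling, chr13:80915192-80915503 had 48 and 46. The cluster at SPRY2, chr13:80907027-80917154, held 0 peaks with A771726 alone, 9 with nucleotides and 11 in DMSO, and that at its relative SPRY4, chr5:141687192-141705386, held 0, 10 and 10. The SPRY clusters were chosen after their values were seen. Most peaks only with nucleotides were far from any A771726 peak: 105 of the 2921 lay within 1 kb of one, 262 within 10 kb and 541 within 100 kb. The remaining top sites were chr5:141870412-141871375 with 52 and 35 fragments, chr5:56751699-56752860 with 57 and 46, chr7:15529977-15530317 in AGMO with 38 and 29, and chr4:26199015-26199279 with 57 and 36.

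Peaks only with A771726 alone were narrow and few. Their median width was 69.5 bp (quartiles 57.5 to 108) against 102 bp (66.0 to 168) for A771726 peaks in both lists, and their median −log10 q was 3.71 against 5.01. Their pileups ran from 8 to 21 fragments with a median of 12. By position 35 of the 68 lay within 1000 bp of a peak with nucleotides, so many border a site of the other list. The second by −log10 q, chr4:74735473-74735727 in CXCL1, a chemokine gene, had 17 fragments and was 51 bp from a peak with nucleotides. The first, chr16:81995539-81995596, had 17 fragments, no DMSO peak and no peak with nucleotides within 100 kb. Of the other 8 in the top 10, 5 lay in the SERPINE2 cluster. The rest were chr9:140222832-140222900 in EXD3, with 18 fragments and 37 in DMSO, chr8:98450886-98451011, with 17 and no DMSO peak, and chr15:89164894-89164947 in AEN, a nuclease gene that p53 is known to induce, with 15 and no DMSO peak. The AEN peak was 1431 bp from a peak with nucleotides.

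Only 10 of the 68 peaks lay more than 100 kb from any peak with nucleotides. Of these 10, 7 had no DMSO peak either, and over the whole class 46 of 68 had none. Of these 7, 3 lay together at the start of CDKN1A, the p53 target gene of the cell cycle inhibitor p21. They were chr6:36646530-36646693, chr6:36646936-36646985 and chr6:36647245-36647294, with 14, 11 and 11 fragments at backgrounds of 1.66, 0.863 and 0.854 and −log10 q of 4.07, 4.33 and 4.37. The nearest peak with nucleotides was 2434441 bp from the first of them. Another, chr9:35657774-35657935, lay on RMRP, the RNA of RNase MRP, with 19 fragments, and it had a DDX21 peak. At DKK1, which encodes a secreted Wnt inhibitor, 3 peaks only with the drug lay close together, chr10:54074411-54074516, chr10:54075976-54076075 and chr10:54076203-54076326, with 12, 9 and 11 fragments. None of the 3 had a DMSO peak, and the first was 128 bp from a peak with nucleotides. CDKN1A, RMRP and DKK1 were singled out after their values were seen. These peaks had low pileups and 1 library behind them, and a site without a peak in the other lists may lie below their thresholds.

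By chromosome, the share of peaks with nucleotides that lay on an A771726 peak was highest on chromosomes 22 and 11, 6 of 50 (4.53 to 24.3%) and 18 of 158, or 11.4% (6.89 to 17.4). Of the 18 on chromosome 11, 5 lay in the NEAT1 cluster and 5 in the MALAT1 cluster, so that share is not spread over the chromosome. The share was 1.05% (0.127 to 3.73) on chromosome 7, 2 of 191, and 2.13% (0.583 to 5.36) on chromosome 5, 4 of 188. Chromosomes 18 and 21 had 0 of 37 and 0 of 28, which allow up to 9.49% and 12.3% by the same interval. On chromosome 1, which had the most peaks with nucleotides of all chromosomes, 19 of 354 lay on an A771726 peak and no A771726 peak was without a partner.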

How the data were processed

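CDK9 and DDX21 chromatin immunoprecipitation libraries of A375 cells were each represented by 1 deposited peak list. The submitters' processing notes name Bowtie, MACS2 2.0 and hg19. For their settings and control input nothing is given in the sources used here. Peak names show 1 call per library. In each deposited list column 7 is the fold enrichment (a ratio to local background) at the summit and columns 8 and 9 are −log10 p and −log10 q, all from the authors' peak calling. The deposited score in column 5 is a whole-number form of −log10 q and was not used. These values describe and rank peaks within a list. Depth per library is unknown from these files beyond the relative number of tags, which the lowest background over the fragment length gives.

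Coordinates are written from 1. Summit pileup and background were worked out from fold enrichment, taken as (pileup + 1)/(background + 1), and −log10 p, taken as a Poisson upper tail. A whole-number pileup met both within 0.001 in every list. This step and the overlap step were tested on simulated data. Shares carry Clopper-Pearson 95% intervals, and no p-value was computed. Regions named were the top 10 of each class by −log10 q, the 3 highest and 3 lowest height ratios and the 5 clusters with the most peaks. The SERPINE2 region was known from earlier results. Regions outside this rule were chosen after their values were seen: the RN7SK, NEAT1, U3 and RNU2-2 sites beyond the top 10, the MIR21, MALAT1, SOX5, AGMO, histone and SPRY clusters, and the CDKN1A, RMRP and DKK1 peaks. The sites, regions and lists were chosen with earlier results of these data known. The planned counts over gene lists were not made, since no hg19 annotation was used. The 30 gene symbols were matched by name to the RefSeq table of GRCh38.p14, which gave all 30, with no coordinates taken. Analyses used Python 3.11.15, scipy 1.17.1 and pandas 2.3.3.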

Additional observations from a re-analysis of the deposited data

How the results depend on the processing

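The results were recomputed 94 times with 1 choice changed, 73 times as planned and 21 times with a choice made after the data were seen. A share was taken as kept where it stayed inside its own interval, and a number where it stayed within 1.5 times its value. By this 71 were kept and 23 moved. Shares and numbers cannot change sign. Leaving out the mitochondrial genome removed at most 1 peak a list, and a background limit of 50 fragments at most 8 CDK9 peaks, so these settings say little about stability. With −log10 q of at least 5 there were 90 sites in both lists, 1718 only with nucleotides and 24 only with A771726 alone. With the top 290 peaks of each list, DMSO and DDX21 included, these were 98, 192 and 152. The shares on the other list were then 47.6% for A771726 and 33.8% for nucleotides. Shares on a DMSO peak were 38.5% only with nucleotides, 76.5% in both and 14.5% only with A771726, and on a DDX21 peak 0.521% only with nucleotides and 0% in both. With an overlap of 50% of the shorter peak, 44.0% of peaks only with nucleotides had a DMSO peak. With summits within 250 bp, 70.0% of A771726 peaks had a partner, and 86.8% of peaks in both had a DMSO peak. With peaks within 1 kb merged, 82.9% of A771726 peaks had a partner, 33 were only with the drug, and 15.5% of peaks only with nucleotides had a DDX21 peak. Without the cluster on chromosome 2, 85.2% of A771726 peaks had a partner and 37 were only with the drug. A771726 peaks widened by 39.5 bp on each side moved no value. The median height ratio of 1.02 was 2.44 in raw pileups and 2.63 when divided by tags. No paired analysis was possible because each group had 1 library.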
